A study of Mus musculus with 6 samples.

Results

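The genes described are the Notch pathway genes of a mouse lung squamous cell carcinoma data set. They are 38 symbols chosen by name, with earlier results of these data known, from the 46937 symbols of the count table, and were grouped by role into receptors, ligands, fringe enzymes, processing factors, the nuclear complex, HES, HEY and NRARP targets, and Deltex ligases. Total RNA of tumour biopsies was sequenced in 2 groups of 3 libraries. PSCN tumours carry constitutively active PI3K (Pik3caH1047R), SOX2 overexpression (Sox2OE), deletion of Cdkn2a and Cdkn2b (Cdkn2a/bKO) and also express NSD3T1242A, a mutant of the histone methyltransferase NSD3. PSC tumours, the control, carry the first 3 of these alterations and the labelled wild-type NSD3. By their labels, all 6 libraries therefore share the PI3K, SOX2 and Cdkn2a/b alterations. The promoter or Cre that drives them, the age of the mice and whether each biopsy came from a separate mouse are not stated in the labels used here. A p-value below therefore speaks only of the spread among these 6 libraries, part of which may be technical. Symbols are in capitals, as in the count table.

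Total counts lay between 69563622 and 72807077 per library. NSD3 stood at 821 to 1932 CPM (each count relative to the library's size after TMM adjustment) in PSCN and at 79.7 to 102 CPM in PSC, so its level follows the labels. CDKN2A was at 1.51 to 2.86 CPM in PSCN and at 2.38 to 5.13 CPM in PSC. CDKN2B, labelled as deleted, was at 86.1 CPM in PSCN library 1 and at no more than 0.943 CPM in the other 5 libraries. Bulk RNA does not show which cells of the biopsy this RNA came from. The library labelled PSCN 1 also stood apart in the summed level of 6 fibroblast markers, at 41181 CPM, against 1042 to 3858 CPM in the other 5. Most of that sum was COL1A1 at 19229 CPM and COL1A2 at 16833 CPM. COL3A1, LUM and DCN were also highest in that library. PDGFRA was not, at 123 CPM there against 194 CPM in PSC library 1. The summed level of 8 basal squamous markers, with KRT5, KRT14 and TP63 among them, was 10412 to 23842 CPM in PSCN. In PSC it was 281, 2165 and 8082 CPM in libraries 1, 2 and 3, so PSC library 1 held little of the marker RNA that its label implies. PSC library 3 correlated better with PSCN (mean r of log2 CPM over 21201 genes 0.941, genes not being independent replicates) than with the other PSC libraries (0.908). The female transcript XIST was high in PSC libraries 2 and 3, at 1088 and 1034 CPM, and at most 2.4 CPM in the other 4. Without PSCN library 1 the log2 fold change of PSCN over PSC was -2.57 for DTX1, -1.47 for DTX4, -0.75 for LFNG, -0.77 for MAML2, -0.86 for PSEN2 and 0.37 for RFNG. The members that the results turn on are therefore given for every library below, and the others by their range or log2 fold change.

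Notch receptors are membrane proteins that are activated by ligands of the Delta and Jagged families on a neighbouring cell. Ligand binding lets ADAM10 and then the gamma-secretase complex cut the receptor, and the freed intracellular domain joins the DNA-binding protein RBPJ and a Mastermind coactivator to switch on targets such as HES1, HEY1 and NRARP. In airway epithelium the pathway is known for favouring secretory over ciliated fate, in stratified squamous epithelium for promoting differentiation, and in blood vessels for arterial identity and sprouting.

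Promoters of members were taken from RefSeq on GRCm38.p6, each running from 250 bases before to 50 bases after a gene's start. Entries were found for 30 of the 38 members, with 38 promoters in all. The 8 members without an entry, which were not searched, were HES1, HES2, HEY1, HEYL, MFNG, MIB1, DTX3 and DTX4. The 5 shown are those of HES5 and HEY2, direct targets of the pathway in vertebrates, of NRARP, the target with the largest difference towards PSCN, and of LFNG and DTX1, the members that separated the groups with the smallest p. Capitals mark the RBPJ core TGGGAA, or TTCCCA where it lies on the other strand. For a core, plus strand means the sequence as printed and minus strand its complement, whichever strand of the chromosome the gene is on.
Hes5, GRCm38.p6 chr4:154960673-154960972, plus strand: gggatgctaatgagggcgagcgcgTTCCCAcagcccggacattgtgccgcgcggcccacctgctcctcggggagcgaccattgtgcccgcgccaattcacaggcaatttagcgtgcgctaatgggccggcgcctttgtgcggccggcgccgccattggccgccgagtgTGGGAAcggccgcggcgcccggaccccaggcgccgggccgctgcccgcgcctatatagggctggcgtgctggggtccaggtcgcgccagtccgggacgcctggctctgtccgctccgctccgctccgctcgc
Hey2, GRCm38.p6 chr10:30842734-30843033, minus strand: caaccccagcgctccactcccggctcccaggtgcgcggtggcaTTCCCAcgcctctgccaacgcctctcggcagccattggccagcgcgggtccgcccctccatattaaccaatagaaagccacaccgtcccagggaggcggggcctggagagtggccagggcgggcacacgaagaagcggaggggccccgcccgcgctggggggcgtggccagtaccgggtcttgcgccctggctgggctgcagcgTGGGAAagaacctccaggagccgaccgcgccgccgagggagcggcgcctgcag
Nrarp, GRCm38.p6 chr2:25180508-25180807, plus strand: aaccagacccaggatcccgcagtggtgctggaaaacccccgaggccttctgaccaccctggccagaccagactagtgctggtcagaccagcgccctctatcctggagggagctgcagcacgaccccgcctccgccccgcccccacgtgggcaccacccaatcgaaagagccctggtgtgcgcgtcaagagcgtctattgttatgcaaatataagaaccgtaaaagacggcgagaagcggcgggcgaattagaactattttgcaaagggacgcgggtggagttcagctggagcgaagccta
Lfng, GRCm38.p6 chr5:140607091-140607390, plus strand: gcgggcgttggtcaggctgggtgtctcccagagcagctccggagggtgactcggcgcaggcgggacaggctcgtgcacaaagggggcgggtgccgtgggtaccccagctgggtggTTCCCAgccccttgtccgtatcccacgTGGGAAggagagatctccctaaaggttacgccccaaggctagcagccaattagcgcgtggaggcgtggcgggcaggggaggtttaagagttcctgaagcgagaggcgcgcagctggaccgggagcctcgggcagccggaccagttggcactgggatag
Dtx1, GRCm38.p6 chr5:120711620-120711919, minus strand: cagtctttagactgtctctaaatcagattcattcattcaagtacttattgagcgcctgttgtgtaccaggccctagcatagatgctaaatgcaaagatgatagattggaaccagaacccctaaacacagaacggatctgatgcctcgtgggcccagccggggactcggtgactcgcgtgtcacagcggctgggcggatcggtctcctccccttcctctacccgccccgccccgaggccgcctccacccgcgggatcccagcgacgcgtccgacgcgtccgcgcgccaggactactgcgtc
The HES5 promoter held the core on the minus strand 226 bases before the start and on the plus strand 82 bases before it, and the HEY2 promoter on the minus strand 207 bases and on the plus strand 3 bases before the start. In LFNG the 2 cores began 135 and 108 bases before the start, on the minus and the plus strand. NRARP and DTX1 have no match in these windows, which says only that these letters are not there. The core was found in 11 of the 38 member promoters (28.9%), and in 8397 of all 32851 promoters (25.6%), so its share among members was near that of all genes. Both promoters of RBPJ are in that count, although they overlap and share a core. The longer word GTGGGAA, which contains the core, was in 6 of the 38 member promoters (15.8%) and in 2097 of all promoters (6.38%), so its share was higher among members, which is a description without a test. Both words were searched on both strands, and a match is a description and not a binding site.

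Of the 38 members, 36 passed the filter on low counts, and the 2 that did not were HES2 and HES5. With the quasi-likelihood test of edgeR and adjustment over 21201 genes, 0 members passed an adjusted p of 0.05, where 1 gene in all did (0.00472% higher and 0% lower in PSCN). NSD3, whose level follows the labels, did not pass in this fit either (log2 fold change 3.72, adjusted p = 0.137). Not passing here therefore does not show that a member was unchanged. Before adjustment, 1 member had a p under 0.05 and was higher in PSCN, RFNG, where 9.48% of all genes were. There were 6 lower, LFNG, PSEN2, MAML2, HES6, DTX1 and DTX4, or 16.7% of the 36, where 12.2% of all genes were. The groups did not overlap in 4 members that were higher in PSCN (JAG2, RFNG, NCSTN and RBPJ, 11.1%, against 15.2% of all genes tested) and in 5 that were lower (LFNG, PSEN2, MAML2, DTX1 and DTX4, 13.9%, against 13.4% of all genes tested). These shares are near those of all genes and are no result about the pathway. Its median log2 fold change of PSCN over PSC was 0.13, beside -0.01 for all genes tested. Of the 36 members, 23 were positive and 13 negative, where 49.11% of all genes tested were positive. DESeq2 called RFNG higher (2.78% of the 36, against 5.26% of all genes). It called LFNG, MAML2, DTX1 and DTX4 lower (11.1%, against 8.63% of all genes). With limma-voom and weights for library quality, 0 members were higher, where 8.43% of all genes were. That fit called 3 lower, LFNG, MAML2 and DTX1 (8.33%, against 5.84% of all genes). By the authors' deposited results table no member was higher at an adjusted p under 0.05 (3.92% of its tested genes were) and 3 were lower, LFNG, DTX1 and DTX4 (8.1%).

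**Figure D1:**
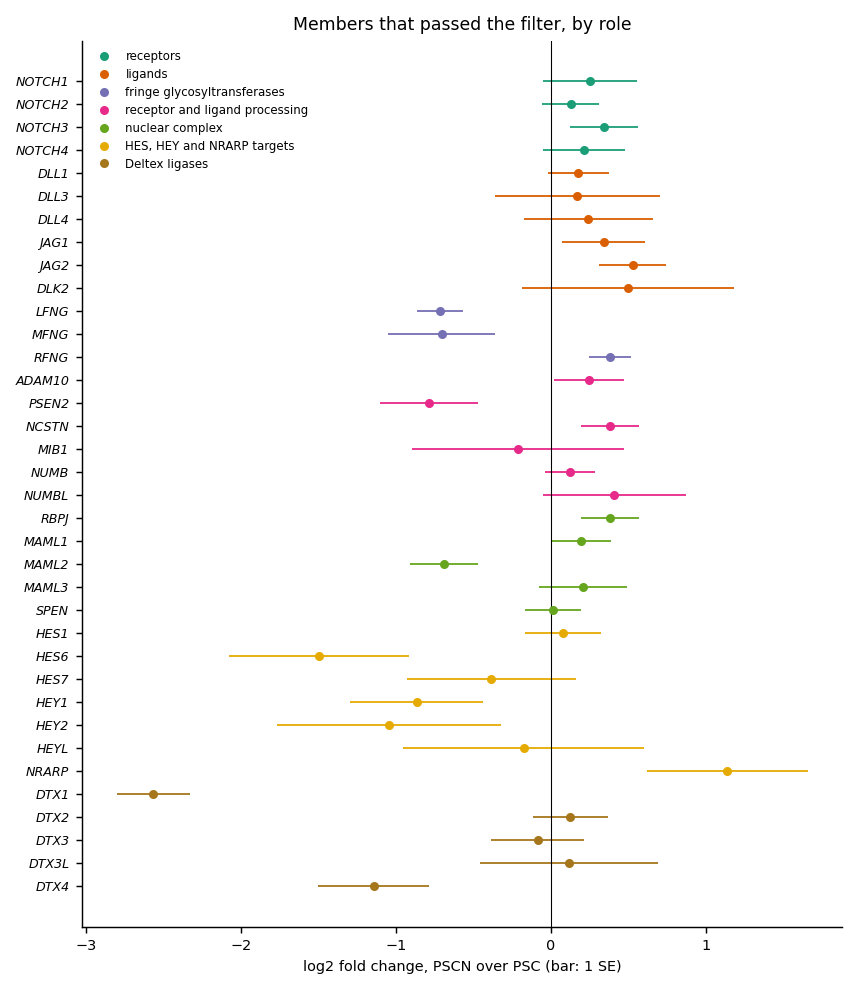
Log2 fold changes of PSCN over PSC for the 36 members that passed the filter, by role, with 1 SE from edgeR as the bar (n = 3 libraries per group). Receptors and ligands sit slightly right of 0, while DTX1 at -2.57 lies farthest to the left and NRARP at 1.14 farthest to the right.

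The Deltex ligases, ubiquitin ligases named after a fly regulator of Notch trafficking, held the largest difference among the members that passed the filter. DTX1, itself a known Notch target in lymphocytes (chromosome 5, 120680202 to 120711927 in GRCm38), stood at 2.44, 2.04 and 2.66 CPM in PSCN libraries 1, 2 and 3 and at 15.1, 12.1 and 15.0 CPM in PSC libraries 1, 2 and 3. The groups lay far apart, and the spread within each was small: 2.38 ± 0.316 CPM in PSCN and 14.1 ± 1.72 CPM in PSC (SD, n = 3 each). That is a 5.92-fold lower level in PSCN (log2 fold change -2.57, SE 0.24, adjusted p = 0.137). Without PSC library 3 the log2 fold change was -2.50 and DTX1 passed (adjusted p = 0.0396), in a fit of edgeR that called 3.39% of all genes higher and 5.4% lower. Over the single libraries left out in turn it ran from -2.68 to -2.50.

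B lymphocyte markers were lower in PSCN too. The summed level of the 7 B cell markers was 7.66, 14.9 and 20.1 CPM in PSCN and 128, 56.9 and 227 CPM in PSC, and all 7, with MS4A1, CD79A and PAX5 among them, had groups without overlap and lay lower in PSCN. Their part in the DTX1 result was not tested. In PSC libraries 1, 2 and 3 the B cell sum was 128, 56.9 and 227 CPM, where DTX1 stood at 15.1, 12.1 and 15.0 CPM. The 8 T cell markers summed to 28.9 to 87.8 CPM in PSCN and 60.1 to 172 CPM in PSC, and overlapped. Other lists differed as well. The 7 club cell markers summed to 571 to 1958 CPM in PSCN and 3768 to 27549 CPM in PSC, with 6 of the 7 lower in PSCN without overlap. The 12 squamous differentiation markers summed to 4767 to 10461 CPM in PSCN and 70.6 to 2771 CPM in PSC, with 10 of the 12 higher in PSCN without overlap. The part of these cell types in the values of DTX1, DTX4, LFNG, MAML2 and PSEN2, all lower in PSCN, was not tested. In bulk RNA, fewer cells of a type and less RNA per cell cannot be told apart.

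DTX4, a paralogue of DTX1, showed 48.8, 24.6 and 30.5 CPM in PSCN and 74.5, 51.7 and 103 CPM in PSC. Each PSCN library was below each PSC library, although PSCN library 1 came close to PSC library 2. The log2 fold change was -1.14 (SE 0.36, adjusted p = 0.192). The other 3 Deltex genes gave groups that overlapped. DTX3L, which works with the ADP-ribosyltransferase PARP9 and is induced by interferon, ranged from 110 to 205 CPM in PSCN and from 60.0 to 262 CPM in PSC, with PSC library 3 highest. Its neighbour PARP9, which shares 458 exon bases with it on the opposite strand, was likewise highest there at 209 CPM, and the labels do not say whether counting used the strand, so reads of the shared bases cannot be told apart. DTX2 and DTX3 differed by 0.12 (SE 0.24) and -0.09 (SE 0.30) on the log2 scale. Per kilobase of exon, DTX1 made up 0.689 to 0.883% of the summed Deltex level in PSCN and 3.08 to 4.93% in PSC. DTX4 made up 8.53 to 13.9% in PSCN and 17.7 to 24.5% in PSC. DTX3 and DTX3L together held most of the level in every library, so DTX1 was a minor Deltex transcript in both groups.

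The fringe enzymes extend sugars on Notch receptors and tune which ligands they answer to. LFNG, or lunatic fringe (chromosome 5, 140607320 to 140615545), was at 29.2, 26.1 and 27.0 CPM in PSCN and at 51.9, 42.0 and 41.4 CPM in PSC. The groups were clearly apart, with 27.4 ± 1.58 CPM in PSCN and 45.1 ± 5.86 CPM in PSC (SD, n = 3 each). The log2 fold change was -0.72 with an SE of 0.15 (adjusted p = 0.175). RFNG, or radical fringe, had the opposite order, with 51.5, 49.5 and 49.1 CPM in PSCN and 34.3, 38.7 and 42.3 CPM in PSC. PSCN was narrow at 50.03 ± 1.3 CPM and lay above PSC at 38.4 ± 3.98 CPM (log2 fold change 0.38, SE 0.13, adjusted p = 0.2). MFNG, or manic fringe, which lymphocytes express, was at 13.5, 11.2 and 8.72 CPM in PSCN and at 25.8, 17.4 and 11.5 CPM in PSC. Here PSC library 3 lay inside the PSCN range, and the log2 fold change was -0.71 (SE 0.35, adjusted p = 0.285).

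The makeup of the fringe family differed between the groups. Per kilobase of exon, the 3 enzymes summed to 33.6 to 37.1 CPM per kb in PSCN and to 37.5 to 43.6 CPM per kb in PSC. LFNG was 30.5 to 32.1% of that sum in PSCN and 43.7 to 47.5% in PSC. RFNG was 55.8 to 58.7% in PSCN and 31.7 to 45.2% in PSC. The log2 ratio of LFNG over RFNG CPM, which does not depend on library scaling, was -0.82, -0.92 and -0.86 in PSCN and 0.60, 0.12 and -0.03 in PSC. These shares and the ratio were chosen after the values were seen and are given without a test.

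**Figure D2:**
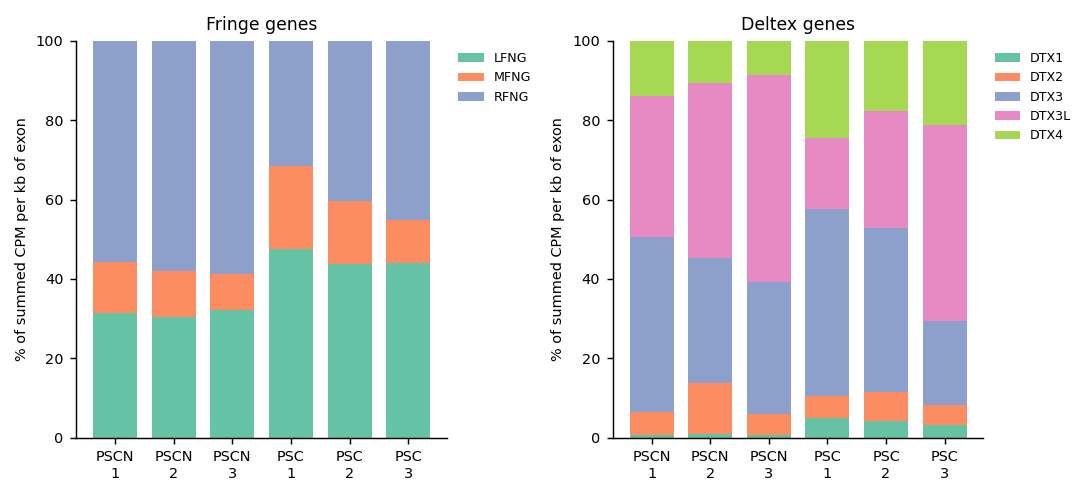
Share of each fringe gene (left) and each Deltex gene (right) in the family's summed CPM per kb of exon, in percent, with 1 bar per library. LFNG takes 30.5 to 32.1% in PSCN and 43.7 to 47.5% in PSC, and the DTX4 and DTX1 segments are both thinner in all 3 PSCN libraries.

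All 4 receptors had small positive log2 fold changes and overlapping groups. NOTCH1, the main receptor of stratified epithelium, was at 180.0, 222 and 101 CPM in PSCN and at 156, 145 and 121 CPM in PSC. PSCN library 2 was the highest and PSCN library 3 the lowest of the 6 (log2 fold change 0.25, SE 0.30, and -0.05 without PSCN library 2). NOTCH2 was at 174, 157 and 136 CPM in PSCN and at 117, 147 and 163 CPM in PSC, with groups that intermixed (log2 fold change 0.13, SE 0.18). NOTCH3, known in basal airway cells and vascular mural cells, stood at 171, 176 and 107 CPM in PSCN and at 113, 124 and 121 CPM in PSC. PSCN library 3 lay below all PSC libraries while the other 2 lay above them (log2 fold change 0.34, SE 0.22). NOTCH4, an endothelial receptor, had 86.3, 59.1 and 52.3 CPM in PSCN and 73.2, 48.7 and 48.9 CPM in PSC. Library 1 was the highest in both groups (log2 fold change 0.21, SE 0.27, and -0.02 without PSCN library 1). An overlapping gene that shares 1068 exon bases with NOTCH1 did not exceed 0.904 CPM. Adjusted p for the receptors ran from 0.386 for NOTCH3 to 0.696 for NOTCH2. Per kilobase of exon NOTCH3 was the most abundant receptor in 5 of the 6 libraries, and NOTCH2 had slightly more in PSC library 3. NOTCH3 held 33.5 to 36.8% of the receptor sum in PSCN and 31.2 to 33.9% in PSC. This ranking depends on the exon lengths used, 14232 bases for NOTCH1 and 8089 for NOTCH3. In plain CPM NOTCH1 exceeded NOTCH3 in libraries 1 and 2 of both groups. The receptor sum was 60.6, 59.3 and 39.4 CPM per kb in PSCN and 45.0, 45.1 and 44.7 CPM per kb in PSC, so PSCN libraries differed more among themselves than PSC libraries did.

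Among the ligands, JAG2, a Jagged ligand of squamous basal layers, was the single one without overlap. It was at 90.7, 130.1 and 83.6 CPM in PSCN and at 60.6, 70.4 and 80.2 CPM in PSC. PSC library 3 came close to PSCN library 3 (log2 fold change 0.53, SE 0.22, adjusted p = 0.233, and 0.26 without PSCN library 2). JAG1 was at 99.1, 128 and 65.0 CPM in PSCN and at 89.8, 72.2 and 68.5 CPM in PSC. As for NOTCH1, PSCN library 2 was the highest and PSCN library 3 the lowest (log2 fold change 0.34, SE 0.27). DLL4, the Delta ligand of sprouting endothelium, was at 61.6, 43.9 and 33.3 CPM in PSCN and at 56.5, 40.6 and 20.2 CPM in PSC. In both groups library 1 was the highest and library 3 the lowest, as for the summed level of the 12 endothelial markers, at 977, 801 and 549 CPM in PSCN and 2067, 1226 and 384 CPM in PSC. The part of these cells in the DLL4 values was not tested (log2 fold change 0.24, SE 0.42, and -0.06 without PSC library 3). DLL1 stood at 19.5, 24.2 and 23.3 CPM in PSCN and at 17.7, 24.0 and 17.6 CPM in PSC (log2 fold change 0.18, SE 0.20). DLL3, a ligand-like inhibitor found in neuroendocrine cells, had 4, 11 and 14 counts in PSCN and 11, 9 and 8 counts in PSC (log2 fold change 0.17, SE 0.53), too few to separate the groups. DLK2, a Delta-like protein without the domain that activates Notch, was at 6.53 to 11.3 CPM in PSCN and at 1.54 to 10.9 CPM in PSC, with PSC library 1 lowest. Per kilobase of exon JAG1 was the leading ligand in PSC libraries 1, 2 and 3 at 31.95 to 35.9% of the sum of the 5 canonical ligands. It held 33.6, 37.9 and 29.8% in PSCN libraries 1, 2 and 3, and JAG2 exceeded it in library 3 with 32.1%.

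The processing factors divided. NCSTN, or nicastrin, the substrate receptor of gamma-secretase, was at 156, 157 and 161 CPM in PSCN and at 92.4, 131 and 141 CPM in PSC. PSCN was tight and above every PSC library (log2 fold change 0.38, SE 0.19, adjusted p = 0.289, and 0.22 on the log2 scale without PSC library 1). The overlapping gene COPA, which shares 195 exon bases with NCSTN, was at 295 to 362 CPM in PSCN and at 276 to 299.5 CPM in PSC. PSEN2, a catalytic presenilin of gamma-secretase, was at 14.9, 8.20 and 17.2 CPM in PSCN and at 22.7, 27.3 and 19.5 CPM in PSC. PSCN was below PSC throughout (log2 fold change -0.79, SE 0.32, adjusted p = 0.226). ADAM10, the protease of the first cut, ranged from 150.2 to 242 CPM in PSCN and from 154 to 189 CPM in PSC. MIB1, the ligase that lets ligands be internalised, had 1 high library in each group, 100.5 CPM in PSCN library 2 and 100.4 CPM in PSC library 1, with the other 4 between 24.0 and 38.6 CPM. NUMB, an inhibitor of the receptor, overlapped at 51.6 to 69.9 CPM in PSCN and 53.8 to 61.9 CPM in PSC, and its relative NUMBL was at 48.5 CPM in PSCN library 1 and between 15.6 and 27.0 CPM elsewhere.

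In the nuclear complex RBPJ was at 77.8, 73.9 and 84.9 CPM in PSCN and at 47.0, 62.5 and 71.9 CPM in PSC. PSCN library 2 and PSC library 3 came closest (log2 fold change 0.38, SE 0.19, adjusted p = 0.281, and 0.23 on the log2 scale without PSC library 1). MAML2, a Mastermind coactivator, was at 35.0, 24.4 and 33.7 CPM in PSCN and at 46.6, 61.1 and 42.5 CPM in PSC. All PSCN values were below all PSC values (log2 fold change -0.69, SE 0.22, adjusted p = 0.193). Its relatives MAML1 and MAML3 and the corepressor SPEN overlapped between groups, with log2 fold changes of 0.20, 0.21 and 0.01.

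**Figure D3:**
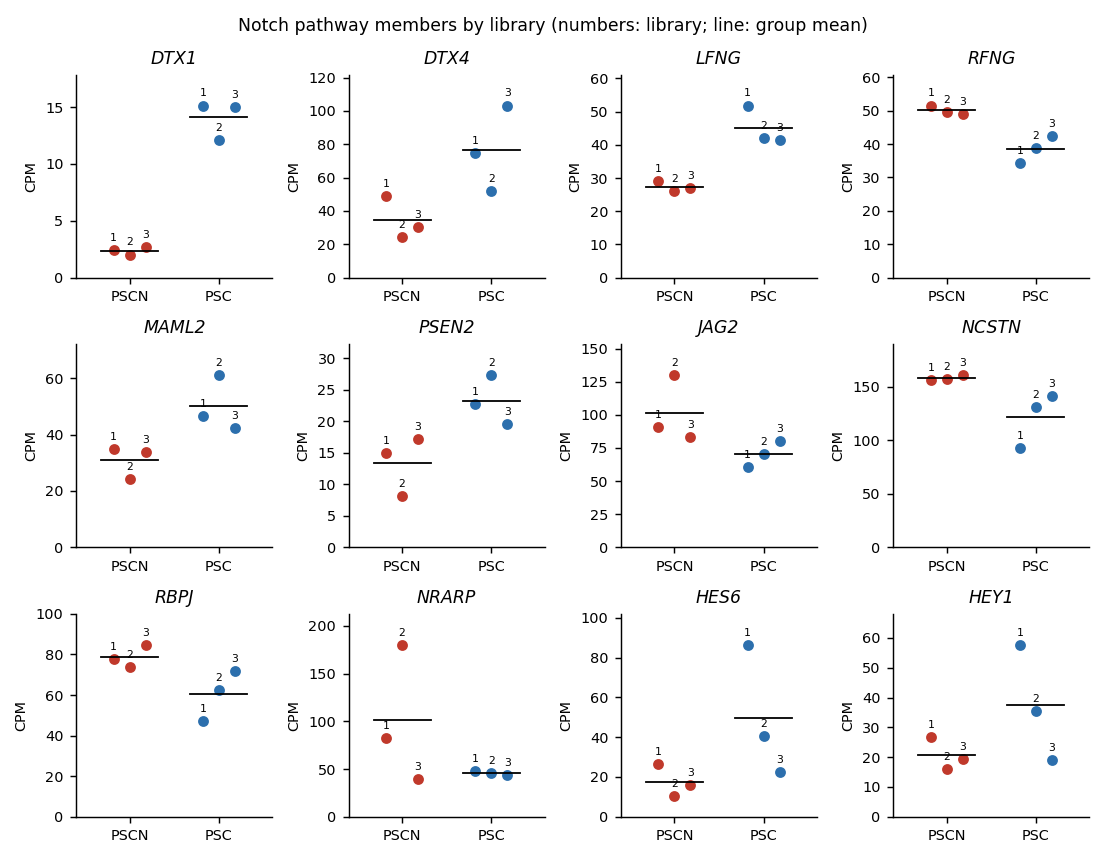
CPM of 12 members in each library, on linear axes from 0, with PSCN left of PSC, the library number above each point and the group mean as a line. DTX1, DTX4, LFNG, MAML2 and PSEN2 are lower in every PSCN library, RFNG, JAG2, NCSTN and RBPJ are higher, and NRARP, HES6 and HEY1 overlap.

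The targets did not differ in 1 direction. HES1, the most widely used readout of the pathway, was at 105, 92.4 and 66.3 CPM in PSCN and at 73.2, 106 and 70.6 CPM in PSC. The libraries intermixed (87.9 ± 19.8 CPM in PSCN and 83.2 ± 19.5 CPM in PSC, SD, n = 3 each), with a log2 fold change of 0.08 and an SE of 0.25. Per kilobase of exon it had the highest mean of these targets in both groups, 43.2 CPM per kb in PSCN and 40.8 CPM per kb in PSC. NRARP, a feedback inhibitor that acts on the Notch and RBPJ complex, was at 82.5, 180.3 and 40.0 CPM in PSCN and at 47.8, 46.0 and 43.8 CPM in PSC. It was high in PSCN libraries 1 and 2 alone, and PSCN library 3 was the lowest of the 6. The log2 fold change of 1.14 (SE 0.52, adjusted p = 0.259) was 0.36 without PSCN library 2. The antisense symbol GM38287, which shares 2051 of NRARP's 2582 exon bases, was listed at 0 in all 6 libraries. PSCN library 2, where NRARP was highest, was also the library with the most NOTCH1, JAG1 and JAG2 and with the highest basal squamous sum, 23842 CPM, and the part of cell composition was not tested.

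HES6, a HES relative that antagonises HES1 and is expressed in neuroendocrine cells, was at 26.3, 10.4 and 16.2 CPM in PSCN and at 86.6, 40.6 and 22.3 CPM in PSC. The groups overlapped only through PSC library 3, which lay between PSCN libraries 1 and 3 (log2 fold change -1.50, SE 0.58, adjusted p = 0.217, and -0.83 without PSC library 1). HEY1 was at 26.6, 15.9 and 19.3 CPM in PSCN and at 57.8, 35.6 and 19.2 CPM in PSC. Again PSC library 3 lay inside the PSCN range (log2 fold change -0.87, SE 0.43, adjusted p = 0.287, and -0.41 without PSC library 1). HEY2 was much lower, at 2.55, 0.943 and 0.977 CPM in PSCN and at 5.80, 2.22 and 1.20 CPM in PSC, with the same order of libraries within PSC. The summed levels of 3 marker lists had that order too, highest in PSC library 1 and lowest in PSC library 3. They were 922, 428 and 43.5 CPM for the 10 ciliated markers, 43.6, 34.1 and 9.21 CPM for the 7 neuroendocrine markers and the endothelial sums given above. In PSCN the ciliated sum was 29.6 to 69.95 CPM and the neuroendocrine sum 2.35 to 20.0 CPM. Among the neuroendocrine markers CHGA was at 0 in PSCN library 2, SCG5 in PSCN library 1, and RESP18 in all 3 PSCN libraries and in PSC library 3. The part of these cell types in the HES6, HEY1 and HEY2 values was not tested. For DTX1, LFNG, DTX4, MAML2 and PSEN2, PSC library 3 lay above every PSCN library, which only restates that their groups did not overlap. The part of these cell types in their values was not tested either.

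HEYL, a HEY family gene known in vascular mural cells, was at 66.1 CPM in PSCN library 1 and 64.3 CPM in PSC library 1, and between 12.1 and 22.8 CPM in the other 4 libraries. The summed level of the 9 mural markers was highest in the same 2 libraries, 820.0 CPM in PSCN library 1 and 1018 CPM in PSC library 1. PSCN library 2 came close to PSCN library 1 with a mural sum of 713 CPM, and had HEYL at 17.0 CPM. The marker NDUFA4L2 held 368 CPM of that sum, against 104 CPM in PSCN library 1 and 10.2 CPM in PSC library 1. PSCN library 1, where NUMBL was also highest, is the library with the high fibroblast sum given above. The part of these cells in the HEYL and NUMBL values was not tested. HES7, the oscillator gene of somite formation, did not exceed 0.765 CPM. HES2 had 8, 0 and 7 counts in PSCN and 17, 17 and 7 in PSC. HES5, a target strongly tied to Notch in neural progenitors, whose promoter above holds the core on both strands, had 0 counts in all 3 PSCN libraries and 6, 8 and 9 counts in PSC. The symbol GM20421, which shares 433 exon bases with HES5 on the opposite strand, had 0 counts in PSCN and 4, 0 and 2 counts in PSC. Reads of the shared bases cannot be told apart. With the floor set at 3 counts over the PSCN group and the 23 PSC counts taken as exact, HES5 was at least 7.04-fold lower in PSCN. This limit covers the counting error of the PSCN zeros only, and not that of the PSC counts. At 0.103 CPM in PSC the gene was close to undetected in both groups.

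**Figure D4:**
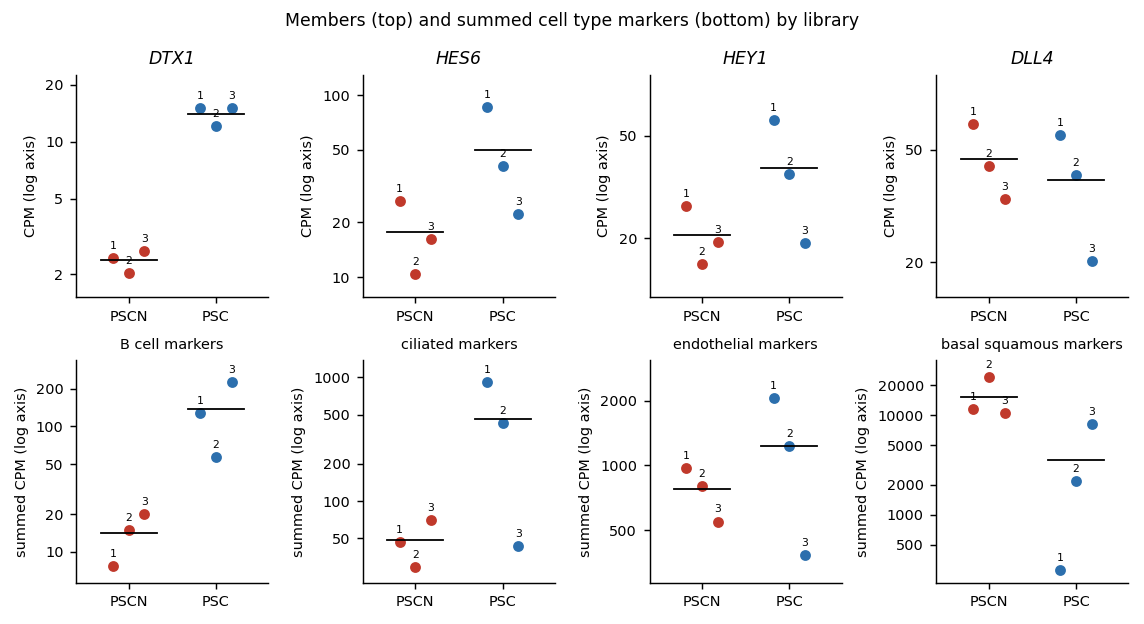
CPM of 4 members (top) and summed CPM of marker lists (bottom) in each library on log axes, with PSCN left of PSC, the library number above each point and the group mean as a line. Among PSC libraries, HES6, HEY1, DLL4 and the ciliated and endothelial sums are all highest in library 1 and lowest in library 3, whereas DTX1 lies between 12.1 and 15.1 CPM in all 3 PSC libraries and the B cell sum is highest in PSC library 3.

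A wider list of 61 pathway symbols outside these members was looked up, of which 58 were in the table and 55 passed the filter. With edgeR 0 passed an adjusted p of 0.05. Before adjustment 7 had a p under 0.05 and were higher (12.7%, where 9.48% of all genes were) and 5 lower (9.09%, where 12.2% were), and the median log2 fold change was -0.07. DESeq2 called 1 of them higher (1.82%, where it called 5.26% of all genes) and 3 lower (5.45%, where it called 8.63%). The limma-voom fit called 5 higher (9.09%, against 8.43% of all genes) and 3 lower (5.45%, against 5.84%). Among the higher genes with the smallest p were CDKN1A, a cell cycle inhibitor and Notch target of keratinocytes, and the corepressor deacetylase HDAC1. CDKN1A was at 303 ± 78.5 CPM in PSCN and 138 ± 3.53 CPM in PSC (log2 fold change 1.14, SE 0.23, adjusted p = 0.171), and HDAC1 differed by 0.57 on that scale (SE 0.21). The 3 lower genes were NOV, a secreted matrix protein that binds NOTCH1, the acetyltransferase KAT2B and the ligand ligase NEURL1B. NOV was at 1.34 ± 0.379 CPM in PSCN and 19.9 ± 10.1 CPM in PSC (log2 fold change -3.89, SE 0.54, adjusted p = 0.137). KAT2B was at 63.6 ± 4.93 CPM in PSCN and 101 ± 15.5 CPM in PSC (log2 fold change -0.67, SE 0.16), and NEURL1B had a log2 fold change of -0.62 (SE 0.19). In each of these 5 genes the groups did not overlap, as for 7 higher and 8 lower genes of the list (12.7% and 14.5%, against 15.2% and 13.4% of all genes tested).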

How the data were processed

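Total RNA of 3 PSCN and 3 PSC tumour biopsies was sequenced with a stranded kit and paired reads of 76 nt, per the labels' protocols. Per the submitters' processing notes, the tools were HISAT2, StringTie, Trimmomatic and DESeq2 (no versions listed) and the build was GRCm38. The authors deposited estimated counts per gene symbol as whole numbers, 1 column per library, and columns C and N were matched to PSC and PSCN by letter and number. They also deposited a DESeq2 table with a mean normalized signal, log2 fold changes, a Wald score and p-values, of which only log2 fold changes and adjusted p-values are used. Whether counting used the strand is not stated there.

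Members and lists were chosen with earlier results of these data known. Genes were filtered with filterByExpr (21201 left), normalized with TMM and tested with edgeR 4.0.16 in R 4.3.3 (quasi-likelihood F test, 4 residual and 2.03 prior degrees of freedom, Benjamini-Hochberg over all genes, threshold 0.05). Each SE was obtained from the log2 fold change and its F statistic. The scripts were tested on simulated data. Exon lengths and positions are from GENCODE M21 on GRCm38, where each of the 38 members matched once. An exon length is the union of all annotated exons of a gene, and rankings per kilobase depend on that choice. Per-library values are printed for members with an unadjusted p under 0.05, for those whose groups do not overlap, and for the receptors, the 5 canonical ligands, HES1, HEY1, NRARP, DTX1 and RBPJ; MFNG, MIB1, NUMBL, DTX3L, HEY2, HEYL, HES2 and HES5 were singled out after their values were seen. Other pathway genes were named by the 3 smallest p per direction, of which 1 is not reported here. Alternatives were RLE and upper quartile normalization, DESeq2 1.42.0, limma-voom (limma 3.58.1) with quality weights, a filter of 1 CPM in 3 libraries, no filter, each library left out and a replicate block. Adjusted deviances and male libraries only were added after seeing the data. The latter kept PSC library 1 as the single PSC library. No permutation test was run, since 3 against 3 libraries reach an exact two-sided p of 0.1 at best. Depth was similar in all libraries. Reads carry no molecular identifiers, so the counting limit for HES5 covers counting error only, and only that of its PSCN counts.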

Additional observations from a re-analysis of the deposited data

How the results depend on the processing

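Both libraries with high XIST were in PSC, so sex and group overlap in part. All genes called numbered 1 as analysed, 2945 with DESeq2 and 3026 with limma-voom and quality weights. They numbered 3 with the filter of 1 CPM, 3 with adjusted deviances, 0 with the replicate block and 0 to 1946 with single libraries left out. Male libraries only left PSC library 1 alone in its group, so no count is given for that setting. Members called numbered 0 as analysed, 5 with DESeq2, 3 with limma-voom and 0 to 1 with single libraries left out, where the 1 was DTX1 without PSC library 3. Other pathway genes called numbered 0, 4 with DESeq2, 8 with limma-voom and 0 to 5 with single libraries left out. The cause of these differences was not tested.

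Same-numbered libraries shared little of their deviations from the group means (r 0.186, -0.053 and 0.016). The best match carried the same number only for PSCN library 1. A replicate block called 0 genes in all. Since 0 members were called without it, this says nothing about how stable they are. For the 21 members named by rule, 291 values under an alternative kept direction and side of the threshold, 9 passed it where the analysis above did not, and 14 reversed the direction, all in NOTCH1, NOTCH4, DLL3, DLL4 and HES1. Male libraries only left all PSCN libraries against PSC library 1 alone, and there NOTCH4 was at -0.13, DLL3 at -0.050 and DLL4 at -0.27. With limma-voom HES1 was at -0.22. With single libraries left out, NOTCH1 ran from -0.054 to 0.49, NOTCH4 from -0.020 to 0.43, DLL3 from -0.15 to 0.55, DLL4 from -0.057 to 0.60 and HES1 from -0.057 to 0.29. The median of all members ran from -0.0099 to 0.137 there. DTX1 ran from -2.68 to -2.50 and LFNG from -0.76 to -0.60. HES5, HES2 and DLL3 are limited by depth, at 17 counts or fewer per library.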
